A study of Mus musculus with 24 samples.

Results

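P-TEFb, the proteins that hold it inactive and the BET proteins were described here through 8 genes: Cdk9, Ccnt1, Ccnt2, Hexim1, Larp7, Mepce, Brd2 and Brd3. They were taken by name from the 20028 genes with a named probe on a mouse gene expression array, and all 8 were found. The arrays held RNA of Th1 and Th2 cells, helper T cells differentiated in culture from female C57BL/6 mice. Each of 24 arrays set 1 RNA sample, labelled with Cy3, against a Cy5-labelled reference from naive CD4+CD62L+CD25-CD44lo T cells of the same strain. Th1 and Th2 cells, unstimulated or reactivated, were given 50 or 500 nM JQ1, an inhibitor of BET bromodomains, or 1 or 10 µM flavopiridol, an inhibitor of Cdk9 and other cyclin-dependent kinases, for 6 hr, with DMSO as the vehicle control. Th1 cells also had DMSO and 500 nM JQ1 arrays at 24 hr. The labels of both Th2 DMSO arrays gave 6 hr in one field and 24 hr in another, so their time was unclear. Each condition was 1 array, and nothing in the labels said whether the cultures came from separate animals. Th1 or Th2 cells, unstimulated or reactivated, gave 4 cell contexts, and the tests used the 4 contexts as the replicates of a drug effect.

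P-TEFb is the kinase Cdk9 bound to cyclin T1 or T2, encoded by Ccnt1 and Ccnt2, and it phosphorylates RNA polymerase II and its pausing factors so that paused polymerase enters elongation. Much of it is held inactive in a particle built on the 7SK RNA, where Hexim1 inhibits the kinase, Larp7 binds and protects the RNA and Mepce caps it. BET proteins such as Brd2 and Brd3 read acetylated histones. HEXIM1 is known from other cells as a gene that rises with BET inhibitors.

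Of the 8 genes, 7 had a promoter sequence in RefSeq (GRCm38.p6), and Mepce had none there. Shown are those of Hexim1, the gene that JQ1 raised most, Larp7, which JQ1 lowered, and Cdk9, whose brightest probe flavopiridol lowered. Each runs 5′ to 3′ along the gene, from 250 bases before the annotated start to 50 after it, with motif matches in capitals.
Hexim1, chr11:103116075-103116374 (plus strand): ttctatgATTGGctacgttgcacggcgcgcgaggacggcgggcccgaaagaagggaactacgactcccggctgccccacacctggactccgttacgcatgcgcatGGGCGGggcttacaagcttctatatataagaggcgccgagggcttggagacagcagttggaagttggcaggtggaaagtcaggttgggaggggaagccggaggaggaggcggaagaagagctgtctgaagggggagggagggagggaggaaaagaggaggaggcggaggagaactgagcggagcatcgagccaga
Larp7, chr3:127553300-127553599 (minus strand): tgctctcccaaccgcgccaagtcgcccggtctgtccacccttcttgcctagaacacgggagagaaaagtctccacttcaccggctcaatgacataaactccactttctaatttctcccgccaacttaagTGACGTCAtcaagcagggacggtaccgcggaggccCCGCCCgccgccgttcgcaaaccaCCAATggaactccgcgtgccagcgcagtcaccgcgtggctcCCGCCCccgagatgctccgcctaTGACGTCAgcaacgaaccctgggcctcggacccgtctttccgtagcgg
Cdk9, chr2:32712735-32713034 (minus strand): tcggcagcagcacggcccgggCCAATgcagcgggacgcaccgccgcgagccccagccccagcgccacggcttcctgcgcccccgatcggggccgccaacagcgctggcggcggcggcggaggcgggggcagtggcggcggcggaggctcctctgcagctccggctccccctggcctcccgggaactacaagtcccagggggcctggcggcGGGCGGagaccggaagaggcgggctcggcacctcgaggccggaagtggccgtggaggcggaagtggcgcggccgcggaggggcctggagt
The capitals mark the GC box (GGGCGG), the CCAAT box (CCAAT) and the cyclic AMP response element (TGACGTCA), searched on both strands, with no overlaps among the matches shown. The 7 genes had 9 promoters, 3 of them of Brd2. A GC box was found in 8 of the 9 and in 35.7% of 32851 promoters in that table. The CCAAT box lay in 4 of the 9, those of Ccnt2, Cdk9, Hexim1 and Larp7, against 37.4% of all promoters. Larp7 alone held TGACGTCA, at 2 places, a sequence found in 1.79% of all promoters. None of the 9 held the exact letters TATAAA, the only form of the TATA box searched, found in 13.6% of all. Looser forms, such as the tatatataag in the Hexim1 sequence shown, were not searched.

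Values are log2 ratios of the sample to the naive reference after loess normalisation, so that 0 is the level of naive cells and 1 is a doubling. A drug effect is the log2 difference between drug and DMSO within a context. In the Cy3 channel, 48.84% to 52.04% of probes stood well above background with DMSO, 43.83% to 51.11% with JQ1 and 35.45% to 41.53% with flavopiridol. With DMSO, Tbx21 of Th1 cells was at 5.41 to 6.35 in Th1 and -0.02 to 4.64 in Th2 cells, and Gata3 of Th2 cells at -0.52 to 0.55 and 1.95 to 2.64. T cell markers Cd3e, Cd3g, Cd4 and Cd28 were above background on all 24 arrays, Lyz2 of macrophages on none, and the B cell marker Ms4a1 on 20, at 1.43 to 1.85 in Th1 and 3.84 to 4.03 in Th2 cells with DMSO, and its part in the results was not tested. In such bulk RNA, fewer cells of a type and less RNA per cell cannot be told apart. Arrays lay on 3 slides. The 6 hr Th1 JQ1 arrays shared slide 1 with their controls, and the 24 hr pairs shared slide 3. The Th2 JQ1 arrays and every flavopiridol array lay on other slides than their controls, so drug and slide cannot be told apart there.

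**Figure D1:**
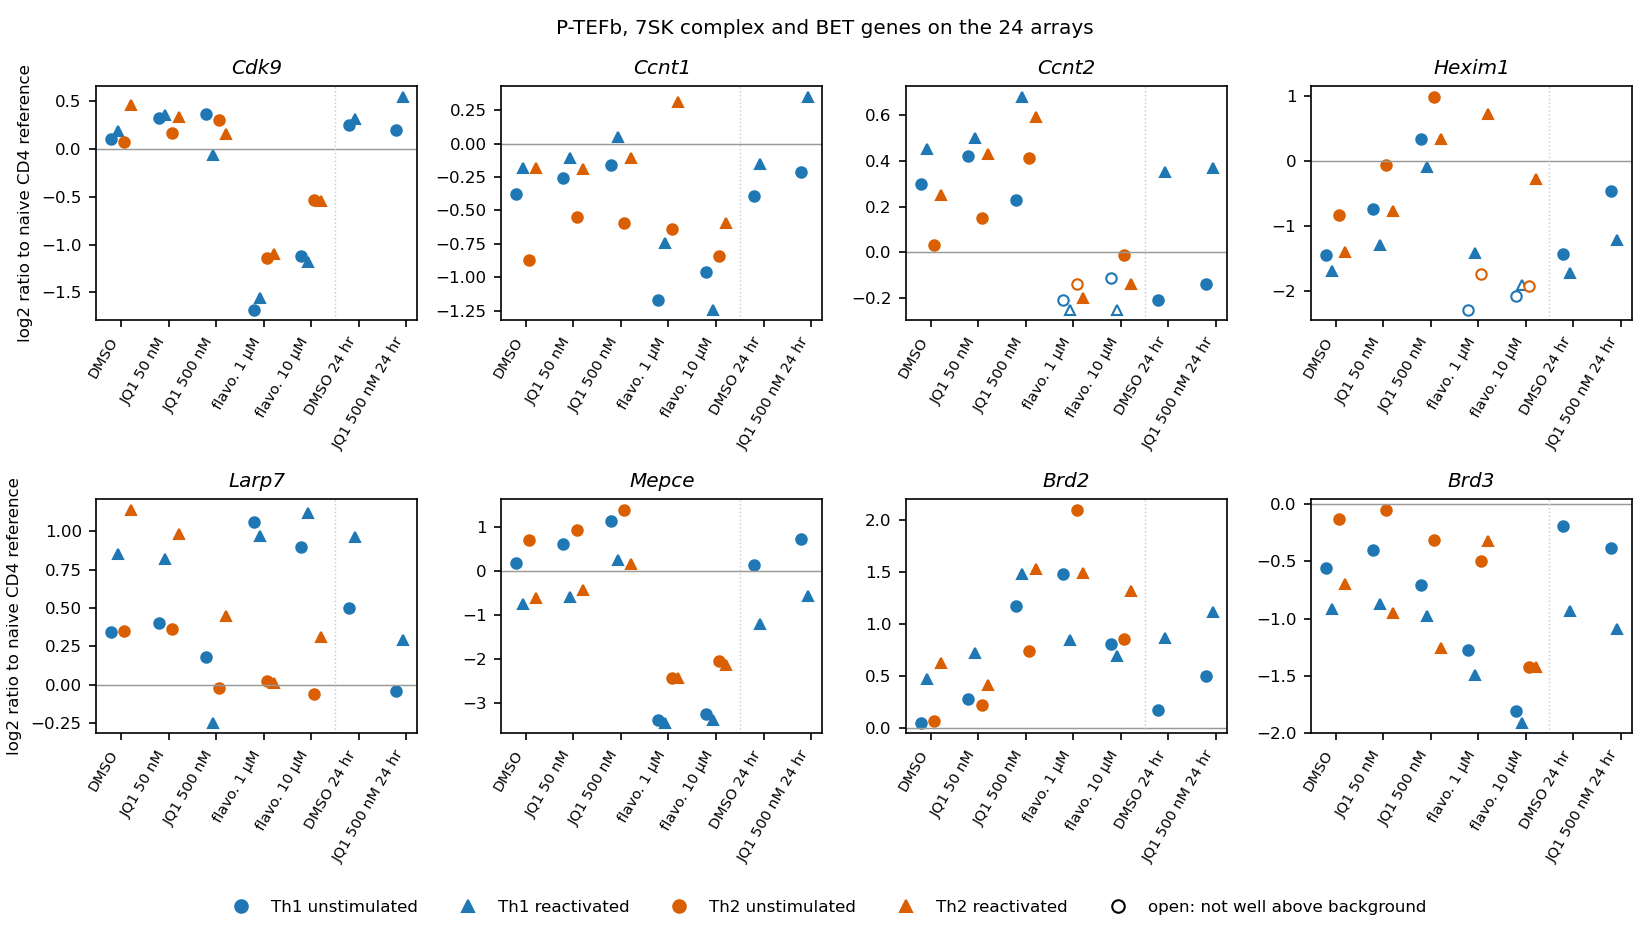
Log2 ratio to the naive reference (y axis) of the 8 genes on the 24 arrays, by treatment (x axis, 24 hr arrays right of the dotted line), with colour for Th1 and Th2 and shape for unstimulated and reactivated cells; open symbols were not well above background. Mepce sits between -3.46 and -2.06 on all 8 flavopiridol arrays and between -1.22 and 1.38 on the other 16.

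The mRNAs of Hexim1, Mepce and Larp7 passed the test with JQ1. At 500 nM, Hexim1 rose by 1.74 on the log2 scale, 3.34-fold (SE 0.08, limma adjusted p = 6.92e-07), and Mepce rose by 0.85, 1.81-fold (SE 0.08, adjusted p = 2.41e-05). Larp7 fell by 0.58, 1.49-fold (SE 0.14, adjusted p = 0.00578). These 3 genes of the 7SK particle thus did not share 1 direction with the same drug.

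Hexim1, the P-TEFb inhibitor, stood below the naive level without drug. Its log2 ratio with DMSO was -1.45 in unstimulated and -1.69 in reactivated Th1 cells, and -0.84 and -1.41 in the matching Th2 cells. With 500 nM JQ1 the ratios were 0.33, -0.10, 0.99 and 0.33 in the same order. The groups did not overlap, and Hexim1 in treated cells stood near or above the naive level. The difference in each context was 1.78, 1.60, 1.83 and 1.74, a narrow range beside the size of the rise. With 50 nM JQ1 the ratios were -0.74, -1.29, -0.07 and -0.77, a rise of 0.63 (SE 0.08, adjusted p = 0.0146). Hexim1 was the only one of the 8 genes called at 50 nM, where 0.341% of 12911 genes were called. The step from 50 to 500 nM added 1.11 (SE 0.08, adjusted p = 2.6e-05). At 24 hr, the Th1 ratios were -1.44 with DMSO and -0.47 with 500 nM JQ1 in unstimulated cells, and -1.72 and -1.22 in reactivated cells. These differences, 0.97 and 0.50, were smaller than those at 6 hr in the same cells, but with 1 array per condition the change with time had no test.

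Mepce, the capping enzyme of 7SK RNA, had log2 ratios with DMSO of 0.18 and -0.75 in unstimulated and reactivated Th1 cells and of 0.69 and -0.62 in Th2 cells. With 500 nM JQ1 they were 1.12, 0.25, 1.38 and 0.16. All 4 contexts were higher, by 0.70 to 1.00, while the 2 groups of arrays overlapped since the contexts differ in level. At 50 nM the difference was 0.25 (SE 0.08, adjusted p = 0.238), and 500 nM exceeded 50 nM by 0.61 (SE 0.08, adjusted p = 0.000524).

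Larp7, the 7SK-binding protein, had log2 ratios of 0.34 and 0.85 in Th1 and 0.35 and 1.14 in Th2 cells with DMSO, unstimulated first. With 500 nM JQ1 they were 0.18, -0.25, -0.02 and 0.45. The contexts were lower by 0.16, 1.1, 0.37 and 0.68, the 2 reactivated ones by the most. The second probe of Larp7 gave a difference of -0.57 (SE 0.12, adjusted p over all probes = 0.00322). At 24 hr the Th1 differences of the first probe were -0.54 in unstimulated and -0.67 in reactivated cells. At 50 nM the difference was -0.03 (SE 0.14, adjusted p = 0.947).

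**Figure D2:**
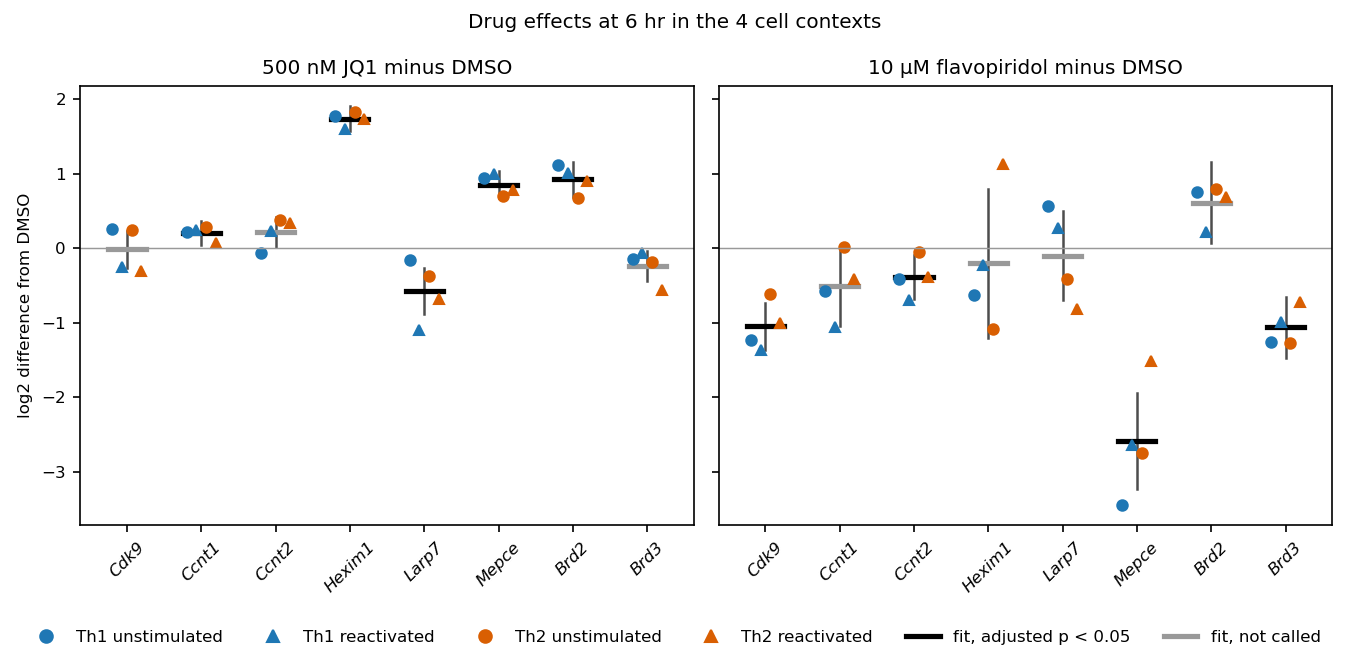
Log2 difference from DMSO (y axis) of the 8 genes (x axis) with 500 nM JQ1 (left) and 10 µM flavopiridol (right) at 6 hr (Th2 DMSO of unclear time). Symbols are the 4 contexts, thick bars the fitted effects (black where adjusted p was below 0.05), thin lines their 95% confidence intervals; Hexim1 spans 1.60 to 1.83 with JQ1 and -1.08 to 1.13 with flavopiridol.

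The kinase and its cyclins moved little with JQ1. Cdk9 had log2 ratios of 0.11 and 0.19 in Th1 and 0.08 and 0.46 in Th2 cells with DMSO, and of 0.37, -0.06, 0.31 and 0.16 with 500 nM JQ1. Its mean difference was -0.01 (SE 0.11, adjusted p = 0.928), with a 95% interval of -0.26 to 0.23. Both unstimulated contexts were higher, by 0.26 and 0.24, and both reactivated ones lower, by 0.25 and 0.30. At 24 hr in Th1 cells, the differences were -0.04 in unstimulated and 0.22 in reactivated cells. Ccnt1 rose by 0.20 (SE 0.07, adjusted p = 0.0458), a call that was lost in 13 of 24 other settings, turned in sign in 3 more, and was kept in 1 of the 8 that left out an array. Ccnt2 differed by 0.22 (SE 0.09, adjusted p = 0.0627), and without the Th1 unstimulated JQ1 array by 0.32 (adjusted p = 0.00734). The 2 other Cdk9 probes gave -0.18 (SE 0.17, adjusted p over all probes = 0.452) and -0.33 (SE 0.10, adjusted p = 0.0284), so that the probes of Cdk9 did not give 1 answer.

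Of the BET genes, Brd2 rose and Brd3 did not pass the test. Brd2 had log2 ratios with DMSO of 0.05 and 0.47 in Th1 and 0.07 and 0.63 in Th2 cells, and with 500 nM JQ1 of 1.17, 1.48, 0.74 and 1.53. Every treated array stood above these controls, and the rise was 0.93, 1.90-fold (SE 0.10, adjusted p = 6.01e-05). It was 0.10 at 50 nM (SE 0.10, adjusted p = 0.741), and 500 nM exceeded 50 nM by 0.82 (SE 0.10, adjusted p = 0.000346). At 24 hr in Th1 cells, the ratio went from 0.17 to 0.50 in unstimulated and from 0.87 to 1.12 in reactivated cells. Brd3 had log2 ratios of -0.56, -0.92, -0.13 and -0.70 with DMSO and of -0.71, -0.98, -0.31 and -1.26 with 500 nM JQ1, overlapping groups. It differed by -0.24 on its brightest probe (SE 0.09, adjusted p = 0.052; -0.29 with adjusted p = 0.0331 without the Th1 reactivated JQ1 array), by 0.35 on a second (SE 0.12, adjusted p over all probes = 0.0387) and by 0.03 on the third (SE 0.11, adjusted p = 0.872). The direction of Brd3 with JQ1 thus depended on the probe.

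In all, 4 of the 8 genes were higher with 500 nM JQ1, and 1 was lower. Of the 12911 genes tested, 17.7% were called higher and 29.9% lower, 47.6% in all, and Hexim1 lay at percentile 99.8 of all differences, Brd2 at 97.7 and Mepce at 97.2. The contrast of 500 with 50 nM called 31.3% of all genes and 4 of the 8, Hexim1, Brd2, Mepce and Larp7. When arrays were scaled to the spike-in RNAs after loess, the median gene moved from -0.07 to -0.62 and only Hexim1 kept its rise. At that scale, Brd2 was at 0.38 (adjusted p = 0.304) and Mepce at 0.31 (adjusted p = 0.403), while Ccnt1 and Ccnt2 stood at -0.34 and -0.32, all 4 still above the median gene. Within slide 1, where Th1 arrays sat beside their controls, unstimulated and reactivated cells gave 1.78 and 1.60 for Hexim1, 1.12 and 1.01 for Brd2, and 0.94 and 1.00 for Mepce.

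Flavopiridol gave another picture of the same genes. At 10 µM, Mepce fell by 2.59, 6.03-fold (SE 0.28, adjusted p = 0.000161), Cdk9 fell by 1.05, 2.07-fold (SE 0.14, adjusted p = 0.000461), Brd3 fell by 1.06 (SE 0.18, adjusted p = 0.00151) and Ccnt2 fell by 0.39 (SE 0.13, adjusted p = 0.0342). None of the 8 was called higher. Over 12432 genes, 15.4% were called higher and 33.5% lower, and the median gene moved by -0.22.

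Mepce had log2 ratios of -3.27 and -3.39 in unstimulated and reactivated Th1 cells and of -2.06 and -2.15 in Th2 cells with 10 µM flavopiridol, and of -3.39, -3.46, -2.43 and -2.43 with 1 µM. Every flavopiridol array was lower than every other array, and the Th1 arrays were lower than the Th2 arrays. The difference in the fall between Th1 and Th2 cells was -0.91 (SE 0.53, adjusted p = 0.549). Th1 and Th2 flavopiridol arrays lay on slides 2 and 3, so slide and cell type cannot be told apart here, and the Th2 controls were of unclear time.

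Cdk9, the kinase that flavopiridol inhibits, had log2 ratios of -1.12, -1.18, -0.53 and -0.54 with 10 µM and of -1.68, -1.56, -1.14 and -1.10 with 1 µM, in the order Th1 unstimulated, Th1 reactivated, Th2 unstimulated and Th2 reactivated. All were below every DMSO array. The brightest probe fell by 1.58 at 1 µM (SE 0.14, adjusted p = 4.48e-05). The other 2 probes were weaker, at -0.45 (SE 0.15, adjusted p over all probes = 0.0391) and -0.27 (SE 0.16, adjusted p = 0.202) with 10 µM. With 1 µM the first of these differed from DMSO by -1.28 to -0.43 over the contexts. The second differed by -0.36, 0.28, -0.1 and 0.41 in the order above, so it did not share the fall in reactivated cells. Ccnt1 differed by -0.51 (SE 0.23, adjusted p = 0.103), with contexts from -1.06 to 0.02. Ccnt2 was dim, and it was not well above background on 5 of the 8 flavopiridol arrays; its call was lost in 11 of 21 other settings, 6 of which left out an array.

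Hexim1 did not show the uniform rise it had with JQ1. With 10 µM flavopiridol its log2 ratios were -2.08 and -1.91 in unstimulated and reactivated Th1 cells, -1.92 in unstimulated Th2 cells and -0.28 in reactivated Th2 cells. Against DMSO this was -0.63, -0.22, -1.08 and 1.13, and the mean difference of -0.20 was within its error (SE 0.44, adjusted p = 0.732, 95% interval -1.20 to 0.80). With 1 µM the ratios were -2.29, -1.42, -1.74 and 0.73, and the differences -0.84, 0.27, -0.89 and 2.14. Reactivated Th2 cells were thus the context with high Hexim1 at both doses. On 3 of the 4 arrays with 10 µM, and on 2 of the 4 with 1 µM, Hexim1 was not well above background. In the 3 contexts at 10 µM, the Cy3 signal with 500 nM JQ1 was at least 5.96-fold higher (Th1 unstimulated), 3.36-fold higher (Th1 reactivated) and 6.98-fold higher (Th2 unstimulated) than with flavopiridol. Without the reactivated Th2 context, a setting added after seeing the data, the Hexim1 difference was -0.64 (adjusted p = 0.0762), and without the reactivated Th2 DMSO array alone it was -0.75 (adjusted p = 0.0471). These values rest largely on the 3 arrays with 10 µM where Hexim1 was not well above background, so neither is a measured fold.

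Larp7 differed in sign between the cell types with flavopiridol, without passing the test of that difference. At 10 µM the log2 ratios were 0.90 and 1.12 in Th1 and -0.06 and 0.31 in Th2 cells, unstimulated first. Th1 cells were higher than DMSO by 0.56 and 0.27 and Th2 cells lower by 0.41 and 0.82. The second probe showed the same signs, with 0.56 and 0.36 in Th1 and -0.26 and -0.89 in Th2 cells. The difference between Th1 and Th2 cells was 1.03 (SE 0.34, adjusted p = 0.297), and the mean difference from DMSO was -0.10 (SE 0.26, adjusted p = 0.775). Here too, slide and cell type cannot be told apart, and the Th2 controls were of unclear time.

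Brd2 had log2 ratios of 0.81 and 0.69 in Th1 and 0.86 and 1.32 in Th2 cells with 10 µM flavopiridol and of 1.48, 0.85, 2.10 and 1.49 with 1 µM. All 8 arrays stood above all 4 DMSO arrays of 6 hr or unclear time. The rise was 1.18, 2.26-fold, with 1 µM (SE 0.24, adjusted p = 0.00343), and the difference was 0.61 with 10 µM (SE 0.24, adjusted p = 0.062), or 0.81 without the Th1 reactivated DMSO array (adjusted p = 0.0252). Brd3 had log2 ratios of -1.81, -1.91, -1.42 and -1.42 with 10 µM, below every DMSO array. Its second probe fell by 0.44 (SE 0.15, adjusted p over all probes = 0.0446). The third was well above background on all DMSO arrays and on none of the 4 arrays with 10 µM, so that no fold is given for it. With 1 µM, where 16.2% of all genes were called higher and 35.4% lower, Brd2 was called higher and Cdk9, Mepce and Ccnt2 lower, Ccnt2 with only 1 of the 4 arrays with 1 µM well above background. The contrast of 10 with 1 µM called 1.88% of all genes and none of the 8 by limma, although Brd3, Cdk9 and Brd2 had unadjusted p of 0.00282, 0.00518 and 0.0457.

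**Figure D3:**
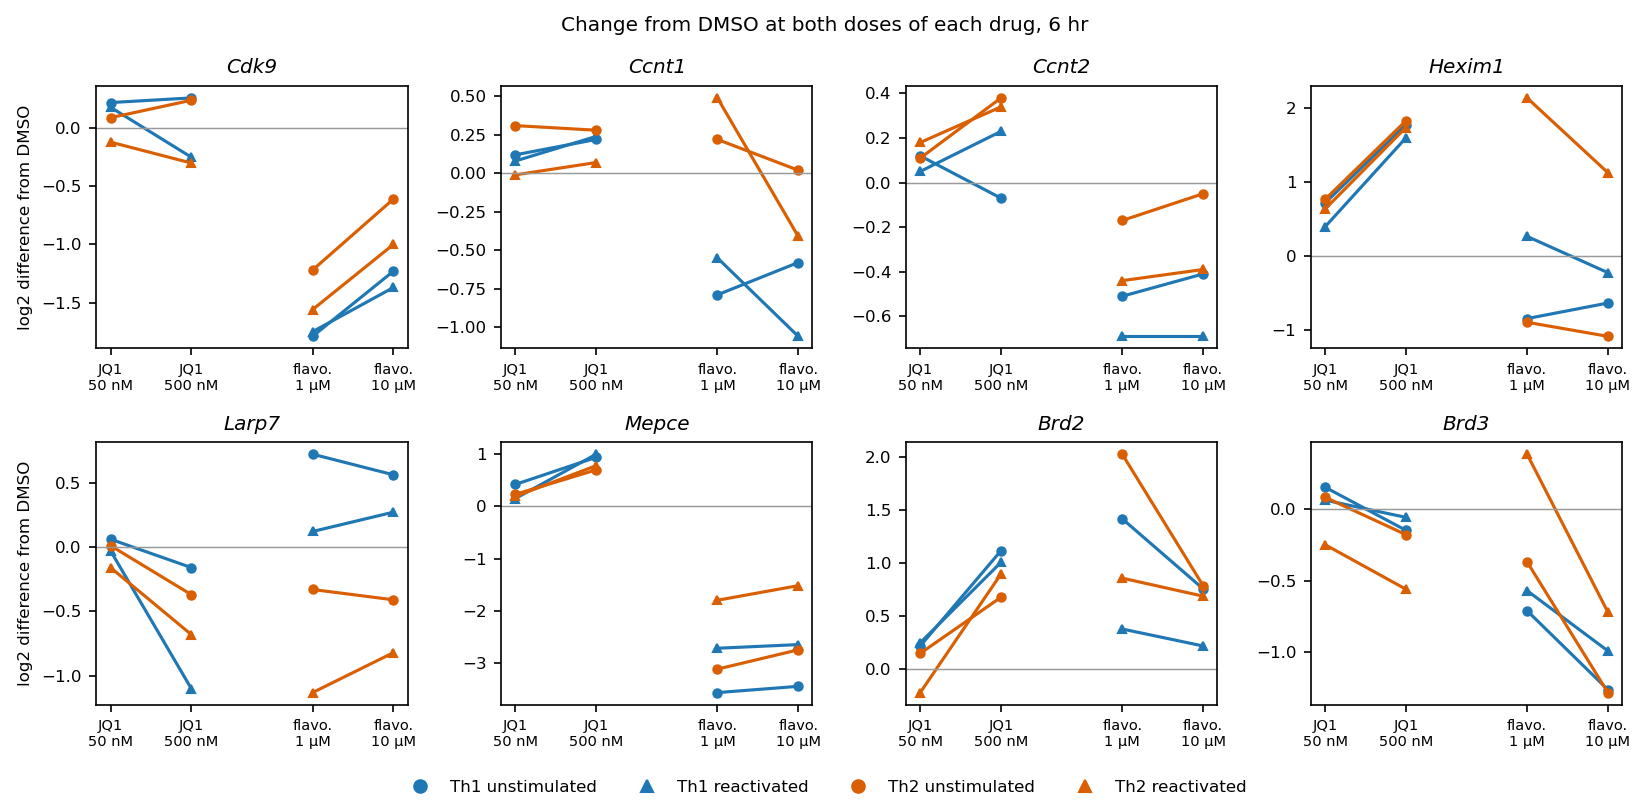
Log2 difference from DMSO (y axis, its own range per gene) at 50 and 500 nM JQ1 and at 1 and 10 µM flavopiridol (x axis) in the 4 contexts at 6 hr (Th2 DMSO of unclear time), with a line for each context. Hexim1 climbs from 0.40 to 0.77 at 50 nM up to 1.60 to 1.83 at 500 nM, while with flavopiridol its contexts spread from -1.08 to 2.14.

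Other scalings shifted all genes with flavopiridol. With spike-in scaling and no loess the median gene moved by -1.66, and all 8 genes were called lower, Brd2 at -1.02 (adjusted p = 0.00231). The count over all genes at that scaling is given at the end. With spike-in scaling after loess the median was -1.0 and Brd2 was at -0.16 (adjusted p = 0.655). Relative to the median gene, Mepce, Cdk9 and Brd3 were lower and Brd2 higher under each of these scalings. The cause of the turned sign of Brd2 was not tested.

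The feedback to the 2 drugs was then compared directly, with the arrays of 500 nM JQ1 set against those of 10 µM flavopiridol. Mepce was higher with JQ1 by 3.45, 10.9-fold (SE 0.30, adjusted p = 1.84e-07), and Hexim1 by 1.94, 3.83-fold (SE 0.45, adjusted p = 0.00174). Cdk9 was higher by 1.04 on its brightest probe (SE 0.15, adjusted p = 3.24e-05), but its other 2 probes gave 0.27 (adjusted p over all probes = 0.218) and -0.05 (adjusted p = 0.815), so this call rests on 1 of 3 probes. Brd3 was higher by 0.83 (SE 0.20, adjusted p = 0.0029), Ccnt1 by 0.71 (SE 0.21, adjusted p = 0.0102) and Ccnt2 by 0.61 (SE 0.12, adjusted p = 0.00037). Brd2 differed by 0.31 (SE 0.24, adjusted p = 0.278, 95% interval -0.19 to 0.81) and Larp7 by -0.48 (SE 0.27, adjusted p = 0.141, 95% interval -1.04 to 0.09). Hexim1 was not well above background on 3 of the 4 flavopiridol arrays, and Ccnt2 on 2 of them, so their fitted folds rest partly on unmeasured signal, and the bounds given above hold for Hexim1 in those 3 contexts. In reactivated Th2 cells, where it was measured on both arrays, its log2 ratio was 0.33 with 500 nM JQ1 and -0.28 with 10 µM flavopiridol, and at the lower doses it was -0.77 with JQ1 and 0.73 with flavopiridol. With that limit, 6 of 8 were called higher with JQ1, against 33.9% of 13114 genes called higher and 22.9% called lower. At the lower doses, 57% of all genes and 4 of the 8 were called. Mepce at 3.05, Cdk9 at 1.67 on its brightest probe and Ccnt2 at 0.57 were higher with JQ1, the last against 3 dim arrays of 4. The other Cdk9 probes were not tested at these doses. Brd2 fell on the other side, at -1.07 (SE 0.24, adjusted p = 0.0012). Hexim1 was at 0.46 there (SE 0.45, adjusted p = 0.394). The 2 drugs differ in target and dose, so these are differences between the treatments as given. Within each context the arrays of the 2 drugs also lay on different slides, so drug and slide cannot be told apart.

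No drug effect on the 8 genes was called different between Th1 and Th2 cells. With JQ1, limma called 0% of all genes different between the cell types, although 907 had an unadjusted p below 0.05, none of them one of the 8. With flavopiridol 0.0161% were called, and Larp7 had the lowest p of the 8, with a difference of 1.03 (SE 0.34, unadjusted p = 0.0221, adjusted p = 0.297). Between reactivated and unstimulated cells, 10.1% of all genes were called for JQ1 and 15.8% for flavopiridol, and again none of the 8. The nearest were Cdk9 with JQ1, lower in reactivated cells by 0.52 on its brightest probe (SE 0.15, adjusted p = 0.057), and Larp7 with JQ1, lower there by 0.63 (SE 0.19, adjusted p = 0.0646). Hexim1 with flavopiridol was higher in reactivated cells by 1.31 (SE 0.56, adjusted p = 0.16), and Mepce by 1.01 (SE 0.41, adjusted p = 0.145). With 10 µM, Hexim1 was well above background only in reactivated Th2 cells, so its difference rests partly on unmeasured signal. Spike-in scaling after loess called all 8 JQ1 effects lower in reactivated cells, when 11072 of 12911 genes were called and the median gene stood at -1.22. Without the Th1 reactivated DMSO array, 2 of the 8 flavopiridol effects were called higher in reactivated cells, beside 2979 of 12229 genes called in either direction.

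Reactivation without any drug was called for 4 of the 8 genes, beside 50.9% of all genes. Over the 3 pairs of DMSO arrays, Larp7 rose by 0.59 (SE 0.13, adjusted p = 0.0111) and Brd2 by 0.56 (SE 0.13, adjusted p = 0.0114), while Mepce fell by 1.19 (SE 0.14, adjusted p = 0.00102) and Brd3 by 0.56 (SE 0.13, adjusted p = 0.0137). Of 12530 genes, 21.9% were called higher and 29% lower. Hexim1 differed by -0.37 (SE 0.13, adjusted p = 0.0588), and Cdk9, Ccnt1 and Ccnt2 by 0.18, 0.37 and 0.31, none of them called on the brightest probe. The other 2 Cdk9 probes gave 0.36 (SE 0.11, adjusted p over all probes = 0.0427) and 0.41 (SE 0.14, adjusted p = 0.0521). The fall of Mepce was 0.92 and 1.35 in Th1 cells at 6 and 24 hr and 1.31 in Th2 cells, and with JQ1 it was 0.87 to 1.35 over 5 pairs. With flavopiridol the reactivated cells differed from the unstimulated ones by -0.13 to 0.00 over 4 pairs. Without either of the Th1 24 hr DMSO arrays, the calls of Brd2 and Brd3 were lost and those of Larp7 and Mepce were not. The other 2 Brd3 probes gave 0.00 (SE 0.12) and 0.20 (SE 0.13), so the fall of Brd3 rests on 1 probe.

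**Figure D4:**
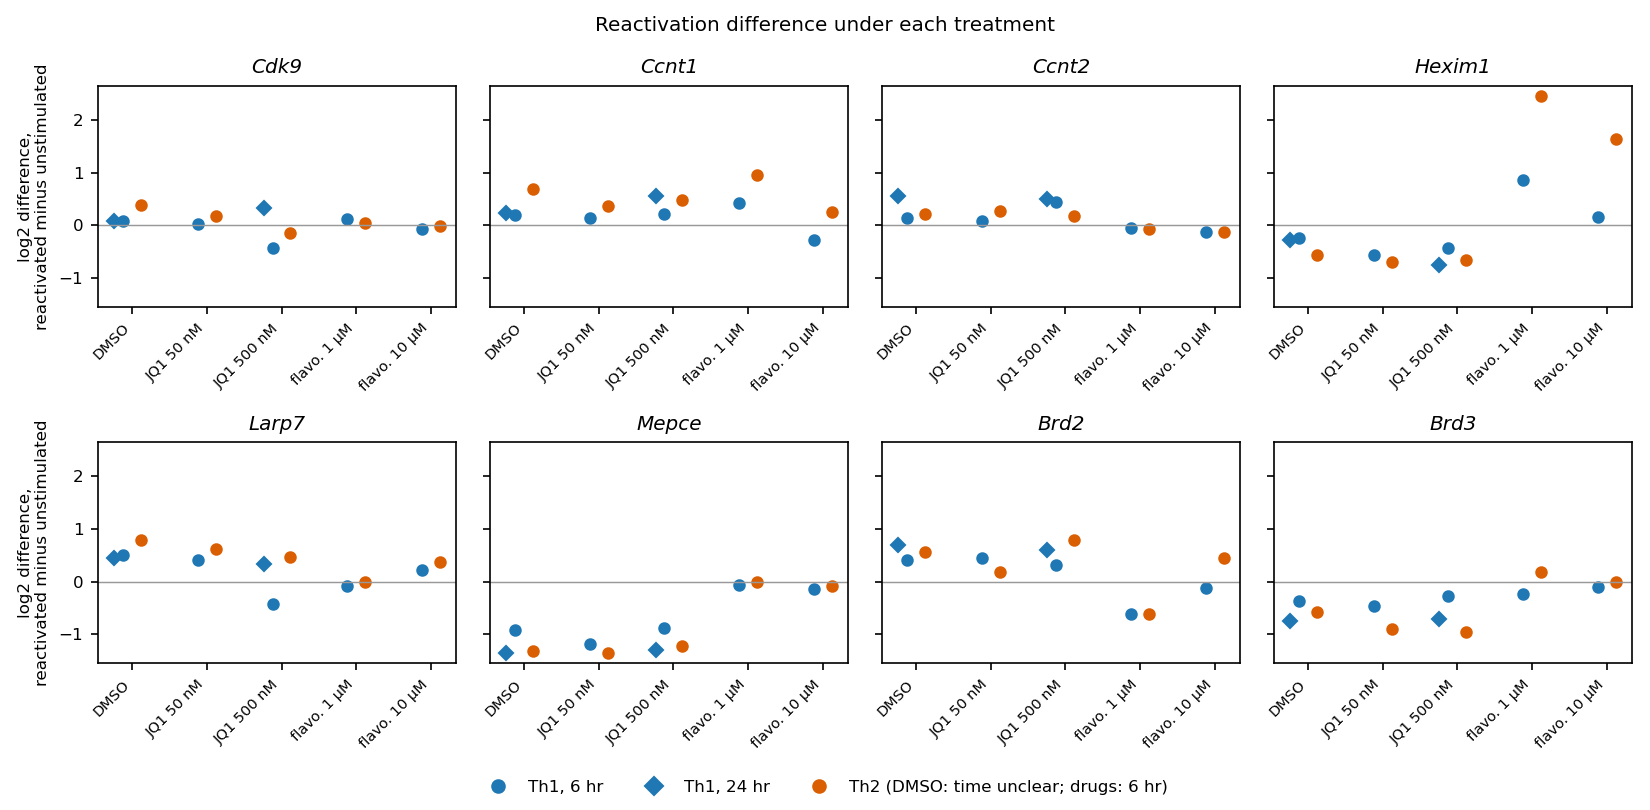
Log2 difference between reactivated and unstimulated cells (y axis) of the 8 genes under each treatment (x axis), with colour for Th1 and Th2 and diamonds for 24 hr. Mepce lies between -1.35 and -0.87 with DMSO and JQ1 and between -0.13 and 0.00 with flavopiridol.

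Other genes of the machinery are given by list, to be read beside the 47.6% of all genes called with 500 nM JQ1 (17.7% higher, 29.9% lower) and the 48.9% called with 10 µM flavopiridol (15.4% higher, 33.5% lower). Among 14 tested partners of 7SK and P-TEFb, 1 was higher and 4 lower with 500 nM JQ1, with a median of -0.01 beside -0.07 for all genes. Hnrnpa2b1, an RNA-binding protein that binds 7SK RNA outside P-TEFb, rose by 0.99 (adjusted p = 0.000154), and Jmjd6, a factor known to act in P-TEFb release, fell by 0.74 (adjusted p = 0.0021). With 10 µM flavopiridol 1 was higher and 5 lower, with a median of -0.52 beside -0.22. Hexim2, the paralog of Hexim1, fell by 2.27 (SE 0.28, adjusted p = 0.000312). With JQ1, Hexim2 was at -0.12 (SE 0.08, adjusted p = 0.23). The difference between the drugs was 2.16 for Hexim2 (SE 0.26, adjusted p = 5.78e-06).

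The shares called over all genes, 47.6% with JQ1 and 48.9% with flavopiridol, apply to the next lists too, of at most 15 genes each. The super elongation complex, in which P-TEFb works with Ell and Aff proteins, had 9 tested genes. With 500 nM JQ1, 2 were higher and 1 lower, and Ell3 rose by 0.51 (adjusted p = 0.00116). With flavopiridol none was higher and 5 lower, and the elongation factors Ell2 and Ell fell by 1.58 and 1.56 (adjusted p = 0.0219 and 0.000359). Among 15 pausing and elongation factors, 3 were higher and 7 lower with JQ1, and none higher and 10 lower with flavopiridol. Ssrp1, a subunit of the histone chaperone FACT, fell by 0.99 with JQ1 (adjusted p = 1.01e-05), while Paf1 of the PAF complex rose by 0.77 with JQ1 (adjusted p = 7.26e-05) and fell by 1.69 with flavopiridol (adjusted p = 3.73e-05). Among 12 other transcription kinases and their cyclins, 5 were higher and 3 lower with JQ1, and 1 higher and 4 lower with flavopiridol. Cdk12, an elongation kinase, rose by 0.76 with JQ1 (adjusted p = 8.06e-05) and fell by 1.13 with flavopiridol (adjusted p = 0.00138). Cdk7, the kinase of TFIIH, fell with both, by 0.83 (adjusted p = 0.00316) and by 1.36 (adjusted p = 0.00146). Of 12 Mediator subunits, 3 were higher and 5 lower with JQ1, 1 higher and 7 lower with flavopiridol. Med24 fell by 0.94 with JQ1 (adjusted p = 1.77e-05), and Med4 fell by 2.85 with flavopiridol (adjusted p = 1.62e-05).

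**Figure D5:**
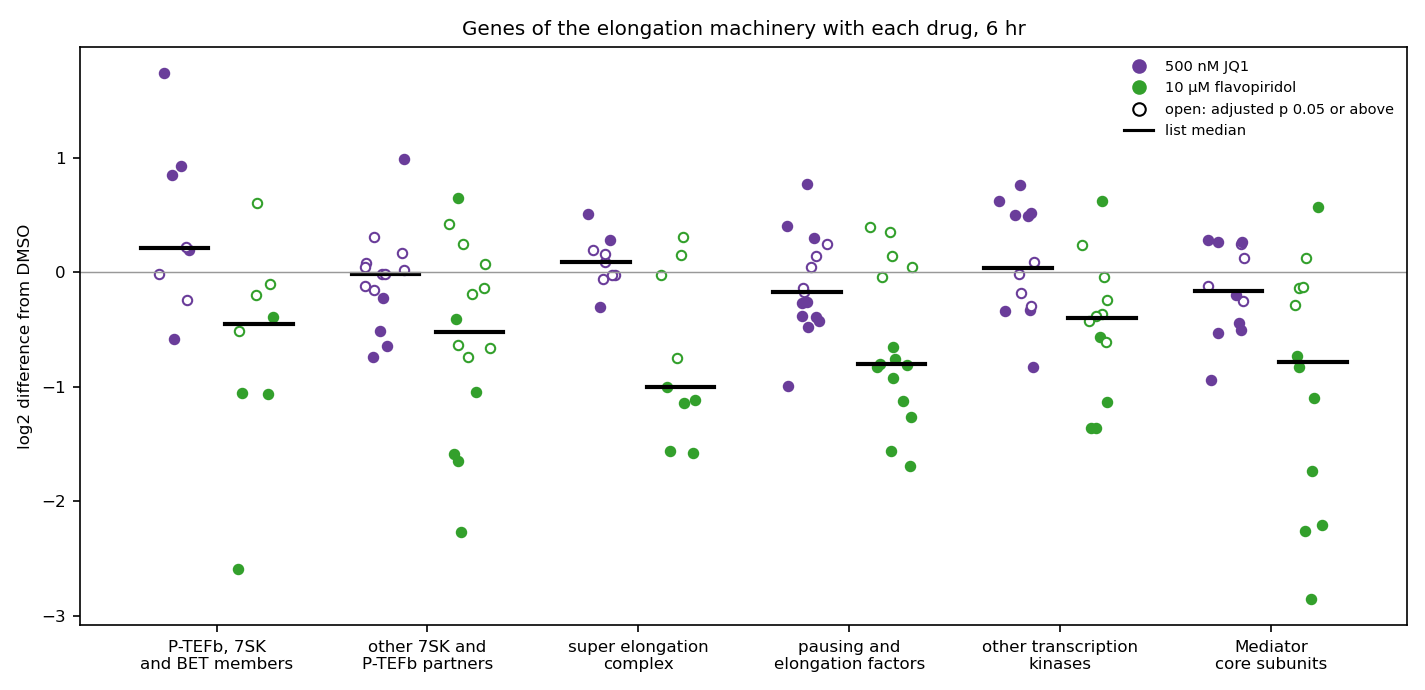
Log2 difference from DMSO at 6 hr (y axis, Th2 DMSO of unclear time) for the genes of 6 lists (x axis) with 500 nM JQ1 and 10 µM flavopiridol, which share their DMSO arrays. Filled points had an adjusted p below 0.05 and bars are list medians. The medians lie between -0.17 and 0.21 with JQ1 and between -1.0 and -0.40 with flavopiridol.

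Across the 24 arrays, the 8 genes did not follow 1 pattern. As a description over arrays that share the naive reference and the drug groups, the Pearson r between members ran from 0.87 for Cdk9 and Mepce to -0.58 for Hexim1 and Larp7. The genes whose log2 ratios were most like a member's, among 8811 others above background on all arrays (8812 for Hexim1 and Ccnt2, which were not), were Med4, Akirin2 and Phrf1 for Cdk9 (r = 0.976, 0.976 and 0.975), Ubn1, Zfp119b and Pnrc1 for Mepce (0.984, 0.981 and 0.98), and Asxl1, Kansl1 and Fam53b for Brd3 (0.955, 0.929 and 0.917). Larp7 was most like Lsm3, Snrpe and Lsm6 (0.933, 0.926 and 0.925). Hexim1 was most like Camsap3, Glul and Rbm38 (0.86, 0.853 and 0.84), Ccnt1 like Hpca, Golga7b and Slc35e2 (0.898, 0.887 and 0.88), Ccnt2 like Mpp7, Appbp2 and Socs4 (0.93, 0.927 and 0.916), and Brd2 like Inpp5a, Lypd5 and Spsb1 (0.788, 0.769 and 0.768).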

How the data were processed

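RNA from 24 Th1 and Th2 samples was hybridised against naive CD4 T cell RNA on Agilent mouse arrays of 62976 spots. The deposited intensity values are the median spot and background signals that the authors obtained with Feature Extraction 10.7.1.1, per the file headers. The same files hold the software's log10 ratio of Cy5 over Cy3, and the authors' value table of 34710 probes holds log2 ratios, both used only as alternatives, per the file headers. The scanner grid named build mm9.

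Signals were corrected with normexp (offset 50) and loess normalised within arrays with limma 3.58.1 in R 4.3.3; control and flagged spots had weight 0. Cy5 was the reference on every array, with no dye swap, so a dye effect cancels only between arrays. Each gene was read from its brightest probe (13 probes for the 8 genes). Genes entered a test when Cy3 was well above background on at least 3 of its arrays. Linear models with cell context as a block were fitted over all genes (Benjamini-Hochberg, adjusted p below 0.05), and other probes in fits over all probes. The study used a rank test and fold thresholds instead. The fits were tested on simulated data. The p-values rest on single arrays per condition, and the number of arrays limits the precision. Bounds on dim probes took as the dim level the probe's own signal or the array's lowest signal above background, whichever was higher.

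The members and gene lists were chosen with earlier results of these data known. Named were all 8 genes, the 3 called list genes with the largest change per comparison and the 3 genes most like each member; some list genes are given by counts only or not reported here. Promoters came from RefSeq (GRCm38.p6).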

Additional observations from a re-analysis of the deposited data

Results flagged for a closer look

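Both results below were marked because every array of one group moved one way and every array of the other the opposite way; neither interaction test passed the threshold after loess normalisation. The difference in the Cdk9 response to 500 nM JQ1 between reactivated and unstimulated cells was -0.52 on the log2 scale (SE 0.15, limma unadjusted p = 0.00633, adjusted p = 0.057). On this brightest probe, unstimulated cells were higher than DMSO by 0.26 and 0.24 and reactivated cells lower by 0.25 and 0.30. A second probe gave 0.38 and 0.26 in unstimulated and -0.75 and -0.6 in reactivated Th1 and Th2 cells. The third probe was lower in all 4 contexts, from -0.61 to -0.06, so it did not change sign. The 24 hr Th1 arrays did not show these signs, with Cdk9 at -0.04 in unstimulated and 0.22 in reactivated cells against DMSO. At 50 nM the differences were 0.22 and 0.09 in unstimulated and 0.18 and -0.12 in reactivated Th1 and Th2 cells. The difference in the Larp7 response to 10 µM flavopiridol between Th1 and Th2 cells was 1.03 (SE 0.34, limma unadjusted p = 0.0221, adjusted p = 0.297), with Th1 cells higher than DMSO and Th2 cells lower. Th1 and Th2 flavopiridol arrays lay on different slides, so slide and cell type cannot be told apart, and the Th2 controls were of unclear time.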

How the results depend on the processing

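With 500 nM JQ1, Hexim1 was called in all 24 settings tried, and with 10 µM flavopiridol Cdk9 and Mepce in all 23. With 500 nM JQ1, 5 members were called. Spike-in scaling called 3, Hexim1 higher and Larp7 and Brd3 lower, both without loess (5637 of 12911 genes called) and after it (4550 of 12911). Th1 cells alone gave 3 (2888 of 12232 genes) and the lower dose 1. Without the context as a block, that is, with no pairing of arrays, 2 were called (Hexim1 and Brd2, with 899 of 12911 genes). With no block, flavopiridol, the drug comparison and reactivation gave 4, 6 and 4 calls. The reported fits gave the same counts, beside 48.9%, 56.8% and 50.9% of all genes. The counts over all genes without a block are not given here for these 3. With flavopiridol, median scaling called 7 members (8611 of 12432 genes) and spike-in scaling 8 (11384 of 12432). The reported fit called 4, with 6076 of 12432 genes. For the JQ1 effect by reactivation, where 0 were called, median scaling called 2 (1012 of 12911 genes), spike-in scaling 7 (10098) or after loess 8 (11072), the mean of all probes 1 (1328 of 12914) and a stricter background filter 1 (1343 of 10672). Spike-in scaling called 1 for flavopiridol in Th1 against Th2 cells (1420 of 12432 genes) and, after loess, 2 for 500 against 50 nM JQ1 (3511 of 12911), and the scanner software's ratios called 1 for 10 against 1 µM flavopiridol (452 of 12432). Leaving out arrays in turn gave 2 to 4 calls for reactivation, beside 4520 to 5586 calls over all genes. It gave 0 to 1 for the JQ1 effect by reactivation (416 to 1378 over all genes) and 0 to 2 for that of flavopiridol (296 to 2979). Some values changed sign, none of them called in the reported fit except Ccnt1 with JQ1, at -0.15 with median scaling, -0.42 with spike-in scaling and -0.34 with spike-in scaling after loess. Ccnt2 with JQ1 was at -0.21 and -0.32 with the last 2 of these. Cdk9 with JQ1 was at 0.00 with Cy3 alone and in Th1 cells alone, 0.04 with the software's ratios, 0.09 at the lower dose, 0.08 without the reactivated Th2 context (chosen after seeing the data), 0.02 with 24 hr arrays added, and -0.10 to 0.08 leaving out arrays. Brd3 with JQ1 was at 0.05 as the mean of all probes and 0.01 at the lower dose. Brd2 with flavopiridol was at -0.42, -1.02 and -0.16 with median, spike-in and loess plus spike-in scaling. Larp7 with flavopiridol was at 0.22 with the software's ratios, 0.41 in Th1 cells, 0.14 without the reactivated Th2 context and -0.36 to 0.18 leaving out arrays. Hexim1 with flavopiridol was at 0.17 at the lower dose and -0.75 to 0.13 leaving out arrays. Between the drugs, Larp7 was at 0.51 and 0.84 with median and spike-in scaling and 0.12 at the lower doses, where Brd2 was at -1.07. The cause of these changes was not tested. Low signal limits Hexim1, Ccnt2 and the third Brd3 probe with flavopiridol.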
